A study of Homo sapiens with 13 samples.

Results

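The genes described here encode the enzymes, carriers and regulators of glycolysis together with a set of transcripts that cells raise when oxygen is short. They were 37 listed symbols, and all 37 matched a row among the 43836 genes of the count table by Ensembl identifier. Messenger RNA had been sequenced from hFOB 1.19, an immortalized human fetal osteoblast line, so that all groups are cultures of 1 line and not donors. The labels placed 13 samples in 5 groups, of which 12 had counts. Medium with 10% fetal bovine serum (FBS) was given to the positive controls (PC, 2 libraries), and medium lacking FBS to the negative controls (NC, 2 libraries). Per the study's methods both carried the DMSO vehicle, and the cells that received RES or POG had been starved of serum. No serum was given to the compound groups either, which received 1 mcg/ml of 1 compound each, namely RES (resveratrol, 3 libraries), POG (peonidin-3-O-glucoside, 3 libraries) or DEG (2 libraries). The sample labels do not spell out DEG, and the treatment protocol lists a delphinidin glucoside beside the other compounds. Replicate 3 of DEG was not analysed here. Nothing in the labels says whether libraries of a group came from separate cultures, so p-values measure the spread between libraries, which may be technical.

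Glycolysis splits glucose into pyruvate in the cytosol and yields a little ATP without oxygen. Lactate dehydrogenase then turns pyruvate into lactate, which leaves the cell through monocarboxylate carriers. When oxygen is short, or when growth signals raise its amount, the transcription factor HIF-1 binds a short DNA element near many of these genes and raises their transcription, along with genes of pH control, mitophagy and vessel tone. Osteoblasts rely on glycolysis to a large extent even in oxygen. The study examined hypoxia signaling among other pathways.

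Library totals ran from 38464619 to 51416358 counted reads. Levels are given as CPM, counts scaled to a common library size after scaling library totals by TMM, and a gene was called at an edgeR false discovery rate (FDR) under 0.05 over the 17092 genes tested. Of 9 osteoblast markers, COL1A1 was at 2845 ± 11.9 and RUNX2 at 47.1 ± 3.38 CPM in NC (SD, n = 2), while SP7 lay at 0.0629 ± 0.0889 CPM and IBSP had no reads in NC. CD3E, a T cell marker, had no reads in any group. Summed marker levels of chondrocytes, adipocytes, blood and epithelial cells were at most 6.54 CPM in any library. Those of endothelial cells were 35.25 to 59.75 CPM, lowest in POG and highest in PC and RES. Most of the endothelial sum was TEK, at 40.3 CPM in NC against 2.29 for PECAM1 and 0.637 for KDR. With serum TEK and KDR were called higher (log2 fold change 0.45 and 1.14) and PECAM1 lower (−0.54), so the sum mainly describes TEK. The summed level of 9 osteoblast markers was 5263 to 5321 CPM in NC, 5462 to 5524 in PC, 4907 to 5035 in RES, 4751 to 4786 in POG and 4763 to 4769 in DEG. COL1A1, COL1A2 (1347 CPM in NC) and SPARC (1046) made up most of that sum. COL1A2 was called lower with RES (log2 fold change −0.16), POG (−0.27) and DEG (−0.26). COL1A1 was called lower with POG (−0.17) and DEG (−0.20), and SPARC higher with serum (0.14). Among the less abundant markers, ALPL was called higher with serum (log2 fold change 0.70), and SPP1 lower with POG (−0.81) and DEG (−0.77). RUNX2 was not called in any comparison with NC. The summed level of 8 division markers was 2528 to 2529 CPM in NC, 2483 to 2631 in PC, 2366 to 2423 in RES, 2672 to 2708 in POG and 2641 to 2647 in DEG. Single division markers moved in different directions, with CCNB1 (0.46), BIRC5 (0.31) and CDK1 (0.098) called higher and MKI67 (−0.12) lower on the log2 scale with serum, MKI67 (−0.19) lower with RES, CDK1, CCNE2 and TOP2A higher with POG, and CDK1 and CCNE2 higher with DEG. The part of all these markers in the results below was not tested. In such bulk libraries a change in the mix of cells and a change of RNA per cell cannot be told apart.

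All 37 members passed the filter on low counts, and 35 of them averaged at least 10 CPM. Their median level was 130.5 CPM against 17.5 CPM for all tested genes. Because more reads make a small change easier to call, call rates are also given for the 9912 tested genes that averaged 10 CPM or more. The members' median lies well above that limit, so these genes are not matched to the members in level. Shares called higher or lower are set against all tested genes only. The part of level in these differences was not tested. CA9 and ANKRD37 rested on few reads, 63 and 83 for CA9 in NC and 90 and 109 for ANKRD37.

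Per kilobase of annotated exon, the most abundant members in NC were enzymes from the aldolase step onward. GAPDH, the glyceraldehyde-3-phosphate dehydrogenase, had 718 CPM per kb. ALDOA (aldolase) had 216, TPI1 (triose phosphate isomerase) 186, ENO1 (enolase) 186 and PKM (pyruvate kinase) 160.2 CPM per kb. LDHA and LDHB, the subunits of lactate dehydrogenase, were close to each other, at 97.6 and 92.3 CPM per kb. Exon lengths pool all annotated transcripts of a gene, so the order holds only for that measure, and TPI1 and ENO1 could not be ordered. Among the entry steps, the hexokinases HK1 and HK2 had 35.4 and 7.005 CPM per kb, and the glucose carriers SLC2A1 (GLUT1) and SLC2A3 (GLUT3) had 21.9 and 19.3. At the low end were PDK1 at 1.33, CA9 at 1.16, ANKRD37 at 1.12 and PFKFB2 at 0.971 CPM per kb.

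**Figure D1:**
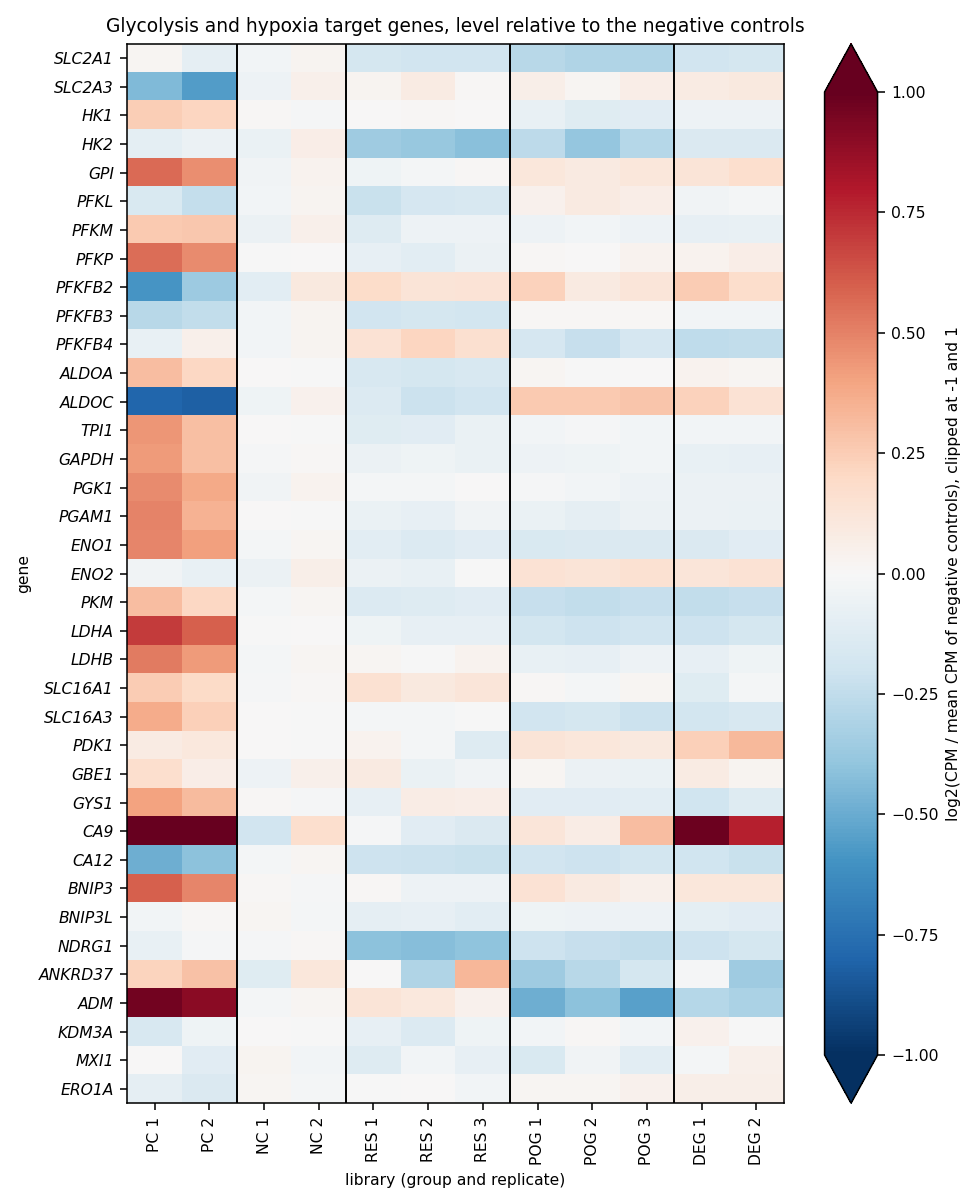
Each row is 1 of the 37 genes and each column 1 of the 12 libraries, in the order PC, NC, RES, POG and DEG. Colour gives the log2 ratio of CPM to the mean CPM of the 2 NC libraries, clipped at −1 and 1, with red higher and blue lower. The PC columns are red over most glycolytic enzymes, while ADM, LDHA and PKM are blue in POG and DEG and NDRG1 is bluest in RES.

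The first comparison asked what serum changes. Of the 37 members 26 were called between PC and NC, 19 higher and 7 lower with serum, or 70.3% of members against 42.4% of all tested genes and 57.1% of those with at least 10 CPM. Called higher were 51.4% of members and 21.4% of all tested genes, and called lower were 18.9% and 20.9%. The median log2 fold change was 0.23 over members and −0.0059 over all tested genes. When libraries were scaled by their plain totals, the higher calls made up 41.0% of all called genes and not 50.6%, while 19 members were still called higher and 8 lower.

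Enzymes of glycolysis carried most of the rises with serum, 13 of 17 higher and 2 lower. Together the 17 enzymes stood at 7965 ± 106 CPM in NC, 10182 ± 495 in PC, 7482 ± 35.0 in RES, 7546 ± 26.6 in POG and 7526 ± 36.5 in DEG (SD, n = 2, 2, 3, 3 and 2). LDHA (ENSG00000134333.13, hg38 chromosome 11, 18394560 to 18408425) had 587 and 589 CPM in NC, 571, 556 and 556 in RES, 519, 509 and 515 in POG, 509 and 521 in DEG and 955 and 892 in PC. Both PC libraries lay above every other library, and all POG and DEG libraries below all NC and RES libraries. LDHA rose by 0.65 on the log2 scale with serum (SE 0.031, edgeR FDR 7.15e-67). GPI (glucose phosphate isomerase) rose by 0.52, PFKP (the platelet-type phosphofructokinase) by 0.52, LDHB by 0.47 and ENO1 by 0.45. Smaller rises were seen in PGAM1 (phosphoglycerate mutase, 0.43), PGK1 (phosphoglycerate kinase, 0.43), TPI1 (0.37), GAPDH (0.37), PFKM (0.27), ALDOA (0.26), PKM (0.26) and HK1 (0.23). ALDOC, the brain-type aldolase, had 52.3 and 55.5 CPM in NC, 48.9, 46.4 and 47.2 in RES, 64.7, 64.6 and 65.4 in POG, 63.3 and 59.7 in DEG and 31.1 and 30.6 in PC, and its groups did not overlap between PC and any other. It fell by 0.80 with serum (SE 0.051, edgeR FDR 9.23e-50). PFKL, the liver-type phosphofructokinase, fell by 0.19. HK2 (log2 fold change −0.079, edgeR FDR 0.293) and ENO2, the neuronal enolase (−0.053, edgeR FDR 0.333), were not called.

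Among carriers and hypoxia targets calls with serum went in both directions. SLC2A3 had 135 and 145 CPM in NC and 103 and 94.9 in PC, and fell by 0.50 with serum (SE 0.042, edgeR FDR 6.08e-27). SLC2A1 was not called (−0.036, edgeR FDR 0.528). The lactate carriers SLC16A3 (MCT4) and SLC16A1 (MCT1) rose by 0.31 and 0.22. Of 11 other hypoxia targets 3 rose, 2 fell and 6 were not called, a share of calls near the 42.4% of all tested genes and below the 57.1% of those with at least 10 CPM. CA9, a carbonic anhydrase on the cell surface, had 1.63 and 2.09 CPM in NC and 6.82 and 5.14 in PC, with no overlap, and rose by 1.69 (SE 0.18, edgeR FDR 2.58e-19). ADM, which encodes the vasodilator peptide adrenomedullin, had 29.1 and 29.8 CPM in NC and 57.6 and 55.0 in PC, and rose by 0.94 (SE 0.056, edgeR FDR 3.43e-59). BNIP3, a mitophagy receptor, rose by 0.55. The related carbonic anhydrase CA12 fell by 0.45, and ERO1A, an oxidase of the endoplasmic reticulum, fell by 0.12 (edgeR FDR 0.00523). PFKFB3 and PFKFB2, which make the phosphofructokinase activator fructose-2,6-bisphosphate, fell by 0.26 and 0.48. GYS1, the glycogen synthase of muscle and other tissues, rose by 0.36. The ERO1A call was lost without NC replicate 1 (edgeR FDR 0.102) and with dispersions from PC and NC alone (0.109).

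**Figure D2:**
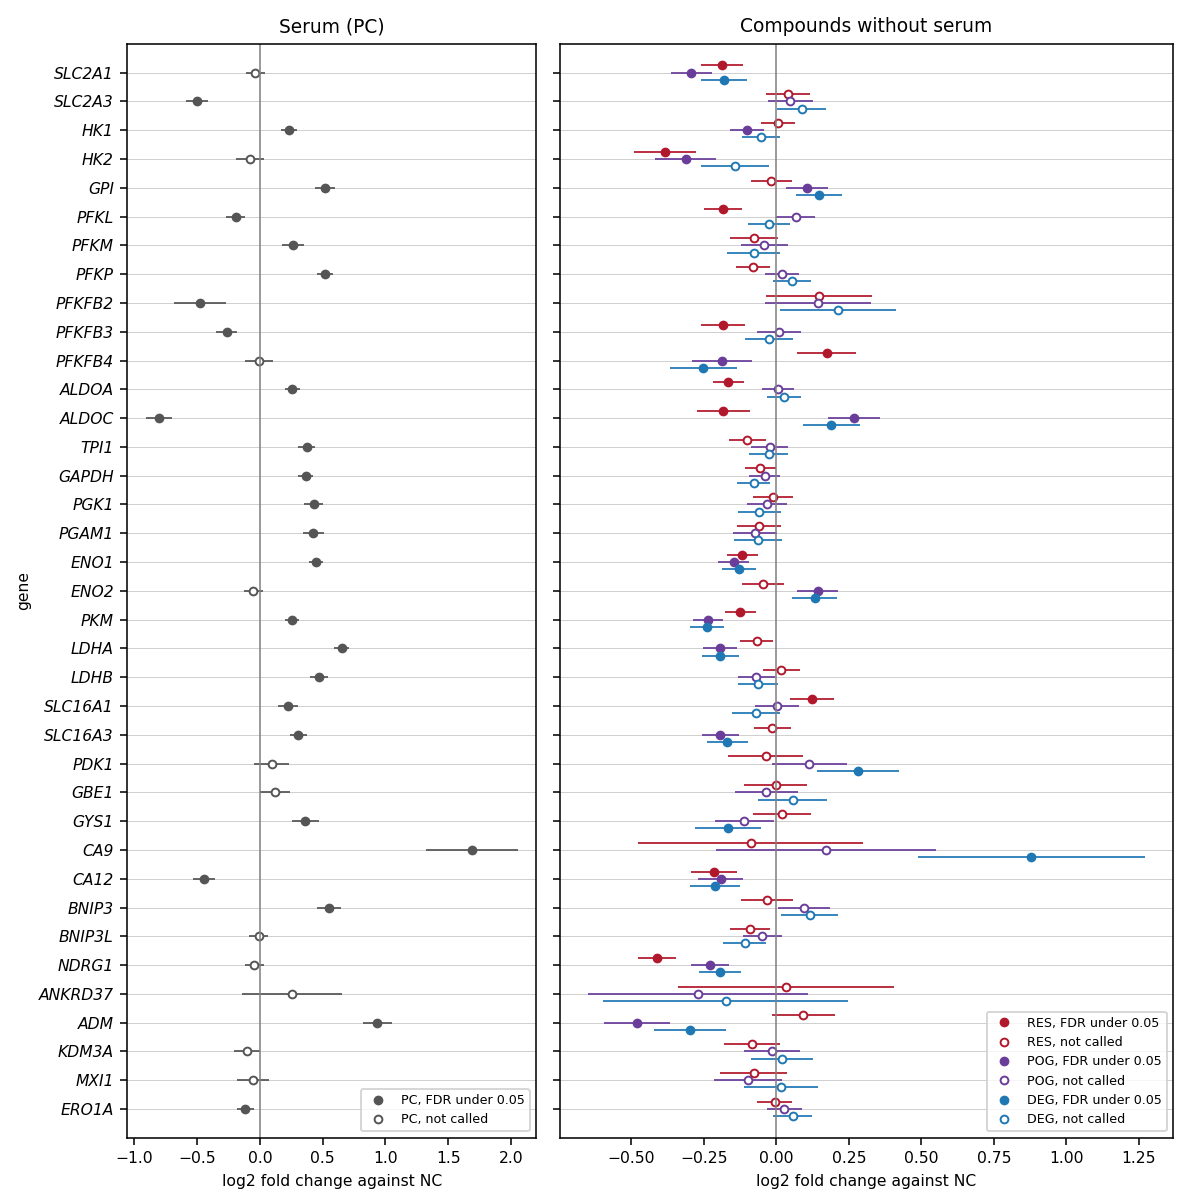
Points give the log2 fold change of each gene against NC, serum on the left and the 3 compounds on the right, with 95% confidence intervals from edgeR's quasi-likelihood fit as bars, and filled points were called at an FDR under 0.05. The horizontal scales differ between the panels. CA9 has the largest value with serum (1.69) and with DEG (0.88), and ADM the lowest with POG (−0.48).

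The next comparisons asked what each compound changed in serum-starved cells. They share the 2 NC libraries, so a deviation of those libraries enters all of them. With RES 12 of 37 members were called, 2 higher and 10 lower, or 32.4% against 11.2% of all tested genes and 15.7% of those with at least 10 CPM. Called lower were 27.0% of members and 6.21% of all tested genes, and called higher were 5.41% and 4.94%. Every called change was under 0.5 on the log2 scale, and the median over members was −0.06 against 0.0011 over all tested genes. Under plain library totals the higher calls made up 64.0% of all called genes and not 44.3%, and the members stayed at 2 higher and 10 lower.

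NDRG1, a stress-responsive gene strongly raised by hypoxia, fell most with RES. It had 169 and 172 CPM in NC, 128, 127 and 129 in RES, 147, 145 and 144 in POG, 147 and 150.3 in DEG and 162 and 169 in PC, so that the RES libraries lay below all others. The fall was 0.41 on the log2 scale with RES (SE 0.032, edgeR FDR 6.60e-28), 0.23 with POG (edgeR FDR 8.10e-09) and 0.19 with DEG (edgeR FDR 3.83e-05). HK2 (ENSG00000159399.9, hg38 chromosome 2, 74834127 to 74893359), the inducible hexokinase that binds mitochondria, had 39.5 and 43.4 CPM in NC, 32.4, 31.9 and 31.0 in RES, 34.5, 31.6 and 34.0 in POG, 37.6 and 37.6 in DEG and 38.8 and 39.8 in PC. RES, POG and DEG libraries all lay below both NC libraries without overlap. It fell by 0.38 with RES (SE 0.052, edgeR FDR 1.47e-10) and by 0.31 with POG (edgeR FDR 2.57e-07), and was not called with DEG (−0.14, edgeR FDR 0.116). SLC2A1 (ENSG00000117394.20, hg38 chromosome 1, 42925353 to 42958893) had 142 and 148 CPM in NC, 128, 127 and 127 in RES, 119.8, 118 and 118 in POG, 127 and 129 in DEG and 147 and 136 in PC. All compound libraries lay below both NC libraries, POG lowest. The fall was 0.19 with RES (SE 0.035, edgeR FDR 3.95e-05), 0.29 with POG (edgeR FDR 1.94e-12) and 0.18 with DEG (edgeR FDR 6.08e-04).

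Further enzymes and targets were lower with RES by small amounts. CA12 fell by 0.21, PFKL by 0.18, PFKFB3 by 0.18, ALDOC by 0.18, ALDOA by 0.16, PKM by 0.12 and ENO1 by 0.12. PFKFB4, a testis-type isozyme of the PFKFB family, had 37.8 and 39.4 CPM in NC, 42.8, 44.8 and 43.1 in RES, 34.3, 32.9 and 34.4 in POG and 32.3 and 32.5 in DEG. It was above NC in RES and below NC in POG and DEG, with no overlap. It rose by 0.17 with RES (SE 0.05, edgeR FDR 0.0106), and SLC16A1 rose by 0.12 (edgeR FDR 0.0258). Without NC replicate 2 the count was 7, with the calls lost of PFKFB3 (edgeR FDR 0.0618), ALDOC (0.195), ENO1 (0.209), PKM (0.183) and SLC16A1 (0.109). Without NC replicate 1 the rises of PFKFB4 (0.239) and SLC16A1 (0.272) were lost, PFKFB4 was also lost without RES replicate 2 (0.0719), and SLC16A1 when RES replicate 1 (0.124) or RES replicate 3 (0.0716) was left out or low counts were kept (0.0534).

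**Figure D3:**
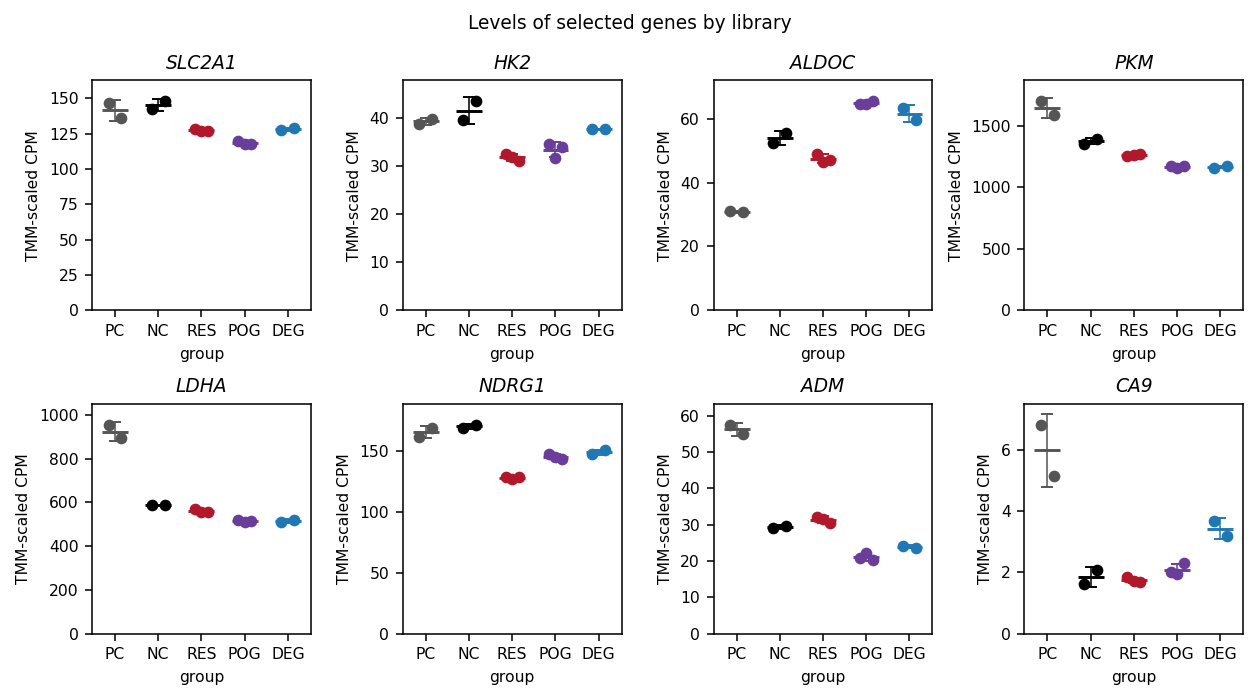
TMM-scaled CPM of 8 genes by library, chosen after their values were seen, with the group mean as a line and the SD as a bar. Each vertical axis starts at 0. RES has the lowest NDRG1 and HK2 means, POG the lowest ADM and SLC2A1 means, and CA9 is higher in DEG than in NC, RES and POG.

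With POG 14 of 37 members were called, 3 higher and 11 lower, or 37.8% against 14.5% of all tested genes and 19.9% of those with at least 10 CPM. Called lower were 29.7% of members and 8.57% of all tested genes, and called higher were 8.11% and 5.93%. The median over members was −0.04 on the log2 scale, against 0.0023 over all tested genes. Under plain totals 3 members were higher and 10 lower, while the higher calls went from 40.9% to 56.0% of all called genes.

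The fall of ADM was the largest among members with POG. ADM (ENSG00000148926.9, hg38 chromosome 11, 10305073 to 10307397) had 29.1 and 29.8 CPM in NC, 32.2, 31.7 and 30.4 in RES, 21.0, 22.2 and 20.3 in POG and 24.2 and 23.7 in DEG. POG libraries were the lowest, DEG libraries came next, and both lay below all NC and RES libraries. ADM fell by 0.48 with POG (SE 0.055, edgeR FDR 8.66e-15) and by 0.30 with DEG (edgeR FDR 1.02e-04), with no call for RES (0.094, edgeR FDR 0.313). Among enzymes and carriers of the last steps, PKM, LDHA, ENO1 and SLC16A3 were called lower and ENO2 higher, while LDHB (−0.069, edgeR FDR 0.207) and SLC16A1 (0.0029, edgeR FDR 1) were not called. PKM, which makes pyruvate, had 1355 and 1392 CPM in NC, 1252, 1258 and 1272 in RES, 1172, 1159 and 1169 in POG and 1158 and 1171 in DEG, with every compound library below NC. It fell by 0.24 with POG (SE 0.026, edgeR FDR 7.01e-11). LDHA fell by 0.19 (SE 0.028, edgeR FDR 4.45e-07). SLC16A3, the carrier that exports lactate from glycolytic cells, had 338 and 338 CPM in NC, 335, 334 and 337 in RES, 296, 300.2 and 292 in POG and 298 and 304 in DEG. Its POG and DEG libraries lay below those of NC and RES, and it fell by 0.19 with POG (SE 0.031, edgeR FDR 2.92e-06). ENO1, CA12, PFKFB4 and HK1 fell by 0.15, 0.19, 0.19 and 0.10. In the other direction ALDOC rose by 0.27 (SE 0.044, edgeR FDR 2.23e-07), ENO2 by 0.14 and GPI by 0.11. GPI (edgeR FDR 0.46 and 0.0634) and HK1 (0.223 and 0.113) were lost without either NC library, ENO2 without NC replicate 1 (0.319) and PFKFB4 without NC replicate 2 (0.162). GPI was also lost without any POG library (0.136, 0.0712 and 0.131), HK1 without POG replicate 2 (0.0991) or 3 (0.0922) and with plain totals (0.0947), and both with no filter (0.0642 and 0.126).

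Promoters of members that fell with POG were searched because the DNA element that HIF-1 binds has a known core, ACGTG or GCGTG. The 250 bases before the start were read from RefSeq windows on GRCh38.p14, of which 32 of the 37 members had at least 1. BNIP3L, NDRG1, PFKFB2, SLC16A1 and SLC2A3 had none. Both letter strings were searched on both strands, so that CACGT and CACGC count as well and CACGTG counts on each strand. Of the 8 members with a window taken in order of the size of their fall, ADM, HK2, LDHA, CA12 and PFKFB4 held at least 1 match in the RefSeq window nearest to the GENCODE gene start, while SLC2A1, PKM and SLC16A3 held none there. The RefSeq start lay 5212 bases inside the GENCODE gene for PFKFB4 and 10501 bases inside it for SLC16A3. Over all tested genes 54.0% of windows held a match. Of the 8 members, sequences are printed only for those with a match, so the printed set was picked by the match itself. CA9, chosen after its values were seen, is added. Sequences run 5′ to 3′ on the gene's strand up to the base before the start, and capitals mark the matches.
ADM promoter, chr11:10304823-10305072, plus strand: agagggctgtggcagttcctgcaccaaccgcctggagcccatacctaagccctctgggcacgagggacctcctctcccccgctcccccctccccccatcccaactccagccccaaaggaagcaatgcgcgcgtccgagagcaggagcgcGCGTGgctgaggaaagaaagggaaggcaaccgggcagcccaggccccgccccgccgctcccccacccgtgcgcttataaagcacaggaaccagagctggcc
HK2 promoter, chr2:74833877-74834126, plus strand: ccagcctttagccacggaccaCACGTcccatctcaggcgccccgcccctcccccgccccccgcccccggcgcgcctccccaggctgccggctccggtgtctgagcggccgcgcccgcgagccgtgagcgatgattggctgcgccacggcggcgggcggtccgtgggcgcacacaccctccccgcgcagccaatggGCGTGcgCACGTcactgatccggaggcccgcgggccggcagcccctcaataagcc
LDHA promoter, chr11:18394313-18394562, plus strand: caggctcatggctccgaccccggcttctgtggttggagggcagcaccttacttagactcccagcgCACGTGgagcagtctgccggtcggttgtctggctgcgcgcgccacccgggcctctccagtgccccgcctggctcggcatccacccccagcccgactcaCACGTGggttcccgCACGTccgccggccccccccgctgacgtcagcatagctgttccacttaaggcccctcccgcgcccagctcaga
CA12 promoter, chr15:63381847-63382096, minus strand: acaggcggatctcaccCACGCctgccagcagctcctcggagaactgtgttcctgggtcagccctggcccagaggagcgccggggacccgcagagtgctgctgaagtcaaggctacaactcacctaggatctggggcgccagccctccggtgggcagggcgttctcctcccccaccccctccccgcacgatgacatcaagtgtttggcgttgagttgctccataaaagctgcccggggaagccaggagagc
PFKFB4 promoter, chr3:48556804-48557053, minus strand: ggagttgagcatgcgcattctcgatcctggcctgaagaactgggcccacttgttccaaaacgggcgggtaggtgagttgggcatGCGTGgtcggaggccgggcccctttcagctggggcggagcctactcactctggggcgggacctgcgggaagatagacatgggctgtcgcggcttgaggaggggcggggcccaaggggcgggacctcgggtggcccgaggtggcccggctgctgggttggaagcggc
CA9 promoter, chr9:35673678-35673927, plus strand: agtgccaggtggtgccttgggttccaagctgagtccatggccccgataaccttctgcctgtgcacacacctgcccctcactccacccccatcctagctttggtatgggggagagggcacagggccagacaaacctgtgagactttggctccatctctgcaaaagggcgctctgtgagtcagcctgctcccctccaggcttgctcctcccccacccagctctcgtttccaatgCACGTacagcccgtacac

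LDHA carried 5 matches in 3 stretches, 2 of them the palindrome CACGTG, and HK2 carried 3. The match in CA9 began 18 bases before the start, and that in ADM 101 bases before it. Counting all windows of a gene, 28 of 32 members (87.5%) held a match in at least 1 window, against 47.4% of the 27305 genes with a window and 63.6% of the 11712 tested genes with one. By window the share was 62.3% of the members' 61 windows and 54.0% of the 16969 windows of tested genes. A gene with several windows has more chances to hold a match, and a match is letters in a window and not a shown binding site.

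With DEG 15 of 37 members were called, 5 higher and 10 lower, or 40.5% against 9.63% of all tested genes and 13.8% of those with at least 10 CPM. Called lower were 27.0% of members and 6.11% of all tested genes, and called higher were 13.5% and 3.52%. The median over members was −0.059 on the log2 scale, against 0.0008 over all tested genes. Plain totals left 5 higher and 9 lower, while the higher calls went from 36.6% to 49.3% of all called genes.

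CA9 (ENSG00000107159.12, hg38 chromosome 9, 35673928 to 35681159) was the member that moved most with DEG. It had 1.63 and 2.09 CPM in NC, 1.84, 1.72 and 1.68 in RES, 2.02, 1.95 and 2.30 in POG and 3.67 and 3.18 in DEG, and both DEG libraries lay above all others grown without serum. CA9 rose by 0.88 with DEG (SE 0.19, edgeR FDR 2.19e-04), with no call for RES (−0.089, edgeR FDR 0.88) or POG (0.17, edgeR FDR 0.664). Exons of CA9 overlap those of ARHGEF39 on the other strand, which averaged 19.1 CPM in DEG and 20.8 in NC and was not called (−0.12, edgeR FDR 0.351). PDK1, the kinase that shuts pyruvate out of the mitochondrial pathway, had 19.9 and 19.7 CPM in NC, 20.3, 19.4 and 18.1 in RES, 21.6, 21.4 and 21.1 in POG and 23.3 and 24.7 in DEG. The DEG libraries were the highest, and PDK1 rose by 0.28 (SE 0.069, edgeR FDR 0.00164). ALDOC, GPI and ENO2 rose by 0.19, 0.15 and 0.13. PKM fell by 0.24 (SE 0.028, edgeR FDR 5.63e-09), LDHA by 0.19 (SE 0.031, edgeR FDR 1.38e-05) and SLC16A3 by 0.17 (edgeR FDR 6.38e-04). PFKFB4, CA12, GYS1 and ENO1 fell by 0.25, 0.21, 0.17 and 0.13.

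Several DEG calls were lost when 1 library was left out. That leaves 1 library in its group, which lowers the power by itself. Without NC replicate 1 the calls of CA9 (edgeR FDR 0.0581), GPI (0.246), ALDOC (0.186) and ENO2 (0.523) were lost. Without NC replicate 2 they were those of SLC2A1 (0.0837), PFKFB4 (0.0523) and ENO1 (0.183). Without DEG replicate 1 they were ALDOC (0.194), ENO1 (0.181), ENO2 (0.098) and SLC16A3 (0.0515), and without DEG replicate 2 GPI (0.187), ENO2 (0.236) and PDK1 (0.0945). The GYS1 call was lost without any 1 of the 4 libraries (edgeR FDR 0.166 to 0.389 over those without NC replicate 1, NC replicate 2 or DEG replicate 1, and 0.0852 without DEG replicate 2), and under the quasi-likelihood test (0.0596), DESeq2 (0.0695), plain totals (0.0804) and no filter (0.0772). PKM, LDHA, CA12, NDRG1 and ADM stayed called for DEG against NC under every setting tried other than the stricter thresholds.

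Compounds were then compared directly at the same labelled dose. POG and RES differed in 20 of 37 members, 10 higher and 10 lower in POG, or 54.1% against 27.9% of all tested genes (13.7% higher, 14.1% lower) and 37.6% of those with at least 10 CPM. DEG and RES differed in 19, of which 12 were higher and 7 lower in DEG, or 51.4% against 21.2% (10.3% higher, 10.8% lower) and 28.8%. These comparisons share the RES libraries. ADM was lower in POG than in RES by 0.57 on the log2 scale (edgeR FDR 4.66e-28) and lower in DEG than in RES by 0.39 (edgeR FDR 3.04e-10). ALDOC was higher in POG by 0.45 (edgeR FDR 1.49e-26) and in DEG by 0.37 (edgeR FDR 5.25e-14). PFKFB4 was lower in POG by 0.36 and in DEG by 0.42, and its relative PFKFB3 was higher by 0.19 and 0.16. NDRG1 was higher in POG by 0.18 and in DEG by 0.22. PFKL, ALDOA and ENO2 were higher than in RES by 0.25, 0.17 and 0.19 in POG, and by 0.16, 0.19 and 0.18 in DEG. The lactate carriers SLC16A1 and SLC16A3 were lower by 0.12 and 0.18 in POG, and by 0.19 and 0.16 in DEG. HK2 was higher in DEG than in RES by 0.24 (edgeR FDR 1.46e-04), and POG and RES were not called for it (0.071, 95% confidence interval −0.025 to 0.17). CA9 was higher in DEG than in RES by 0.97 (edgeR FDR 8.42e-07). The remaining called members were GPI (0.12), PFKP (0.099), PDK1 (0.15) and BNIP3 (0.13), higher in POG, and SLC2A1 (−0.10), HK1 (−0.11), PKM (−0.11), LDHA (−0.13), LDHB (−0.086) and GYS1 (−0.13), lower in POG, than in RES. The remaining called members were GPI (0.16), PFKP (0.14), PDK1 (0.32) and BNIP3 (0.15), higher in DEG, and PKM (−0.11), LDHA (−0.12) and GYS1 (−0.19), lower in DEG, than in RES.

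Some calls against RES were lost when 1 library was left out. For DEG these were PKM without DEG replicate 1 (edgeR FDR 0.11) or 2 (0.0536), LDHA (0.116) and GYS1 (0.135) without DEG replicate 1, PFKP without DEG replicate 2 (0.0609), and BNIP3 without RES replicate 2, RES replicate 3, DEG replicate 1 or DEG replicate 2 (0.051, 0.0519, 0.0996 and 0.104). For POG the calls of SLC2A1, PFKP, LDHB, PDK1, BNIP3 and GYS1 were each lost without at least 2 of the 6 libraries taken in turn, at an edgeR FDR of up to 0.221 for PDK1 without RES replicate 3.

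Between DEG and POG 1 of 37 members was called, or 2.70% against 1.05% of all tested genes (0.55% higher, 0.497% lower) and 1.54% of those with at least 10 CPM. That member was CA9, higher in DEG by 0.71 on the log2 scale (SE 0.17, edgeR FDR 0.00698). Its call was lost without POG replicate 1 (edgeR FDR 0.054) or 2 (0.0674) and without DEG replicate 1 (0.312) or 2 (0.0572). The other 36 differed by −0.092 (PFKL) to 0.18 (ADM), and 30 of them had a 95% confidence interval within 0.2 of 0 in both directions. The interval was −0.056 to 0.059 for LDHA and −0.055 to 0.05 for PKM. For SLC2A1 it was 0.04 to 0.18 and for HK2 0.062 to 0.28, both above 0 although neither was called (edgeR FDR 0.146 and 0.107). The intervals of ADM (0.065 to 0.30) and PDK1 (0.042 to 0.29) also lay above 0, and that of PFKL (−0.16 to −0.025) below it. The widest was that of ANKRD37, −0.29 to 0.48, on few reads.

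**Figure D4:**
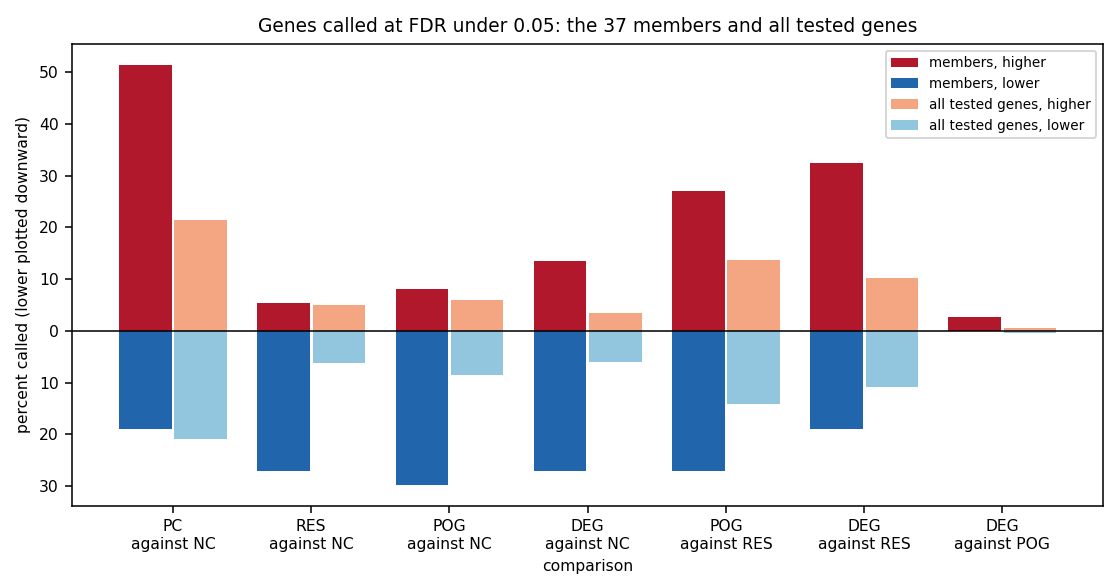
Bars give the percent of the 37 members (dark red and blue) and of all 17092 tested genes (pale) called at an FDR under 0.05 in each of 7 comparisons, higher upward and lower downward. With serum 51.4% of members were called higher, and with RES, POG and DEG 27.0%, 29.7% and 27.0% were called lower.

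Shares of reads within an enzyme family do not depend on how libraries are scaled, and are given as a description without a test. ALDOC took 5.94 and 6.31% of the reads on ALDOA and ALDOC in NC, 2.95 and 3.11% in PC, 6.21, 5.95 and 5.99% in RES, 7.17, 7.27 and 7.31% in POG and 6.97 and 6.65% in DEG. PC libraries lay below and POG and DEG libraries above those of NC, while RES and NC overlapped. ENO2 took 15.5% ± 0.51 of the reads on ENO1 and ENO2 in NC, 11.5% ± 0.17 in PC, 16.2% ± 0.30 in RES, 18.3% ± 0.15 in POG and 18.1% ± 0.046 in DEG (SD, n = 2, 2, 3, 3 and 2). LDHA took 68.1% ± 0.39 of the reads on LDHA and LDHB in NC, 70.7% ± 0.042 in PC, 66.8% ± 0.43 in RES, 66.2% ± 0.31 in POG and 66.1% ± 0.10 in DEG. The PC libraries were the highest for LDHA, and all compound libraries lay below NC. Of the reads on SLC2A1 and SLC2A3, SLC2A1 took 50.9% ± 0.46 in NC, 58.9% ± 0.12 in PC, 47.0% ± 0.69 in RES, 45.0% ± 0.38 in POG and 46.3% ± 0.049 in DEG. PFKFB4 took 32.5% ± 0.021 of the reads on PFKFB3 and PFKFB4 in NC, 36.4% ± 1.05 in PC, 38.1% ± 0.46 in RES, 29.6% ± 0.55 in POG and 29.1% ± 0.10 in DEG, so that PC and RES lay above NC and both other compounds below it without overlap.

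Members that were called in no comparison were ANKRD37, a small hypoxia-induced ankyrin protein, the mitophagy receptor BNIP3L, GBE1, the glycogen branching enzyme, the histone demethylase KDM3A and MXI1, an antagonist of MYC. BNIP3L ranged from 113 to 124 CPM over the 12 libraries, and KDM3A from 41.6 to 48.0. The abundant middle steps of glycolysis, GAPDH, TPI1, PGK1 and PGAM1, were called with serum only among the 4 comparisons with NC. With RES, POG and DEG their log2 fold changes ran from −0.099 (TPI1 with RES, edgeR FDR 0.0526) to −0.011 (PGK1 with RES), and the call rule was not met for any of them. TPI1 with RES passed under other tests (edgeR quasi-likelihood FDR 0.0353, DESeq2 adjusted p 0.0338). Against NC, 16 members were called with none of the compounds. Beside those named in this paragraph they were SLC2A3, PFKM, PFKP, PFKFB2, LDHB, BNIP3 and ERO1A. SLC2A3 changed by 0.04 with RES, 0.048 with POG and 0.088 with DEG on the log2 scale. With serum, PFKFB4, PDK1 and NDRG1 were not called either (edgeR FDR 0.936, 0.295 and 0.404).

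Other genes of glycolysis and the hypoxia response, a list of 94 that excludes the members, gave 83 tested genes. With serum 31 rose and 14 fell, with RES 6 and 12, with POG 10 and 13, and with DEG 9 and 8. In percent of the 83 that was 54.2%, 21.7%, 27.7% and 20.5% called, against 42.4%, 11.2%, 14.5% and 9.63% of all tested genes and 57.1%, 15.7%, 19.9% and 13.8% of those with at least 10 CPM. The medians over the list were 0.14, 0.0008, 0.0092 and 0.0077 on the log2 scale. With serum the rises included IGFBP3 (1.64) and VEGFA (1.20), the vessel growth factor, and the largest falls among called genes SLC16A4 (−0.60), TMEM45A (−0.50) and PDP2 (−0.44). ANGPTL4, a lipase inhibitor raised by hypoxia and fasting, had 63.8 and 65.6 CPM in NC, 38.1, 38.1 and 35.3 in RES, 33.3, 30.7 and 31.6 in POG, 46.7 and 45.5 in DEG and 115 and 102 in PC, and every compound library lay below NC. It fell by 0.80 with RES (SE 0.051, edgeR FDR 2.75e-47), by 1.02 with POG (SE 0.052, edgeR FDR 1.13e-76) and by 0.49 with DEG (SE 0.056, edgeR FDR 1.92e-14). VEGFA had 209 and 206 CPM in NC, 178, 181 and 179 in RES, 155, 158 and 154 in POG and 161 and 158 in DEG, again with every compound library below NC, and fell by 0.21, 0.42 and 0.38 (edgeR FDR 5.01e-08, 7.43e-32 and 4.18e-21).

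A further fall with RES was that of TFRC (−0.44), the transferrin receptor, and the largest rises among called genes were SLC2A12 (0.34), BHLHE40 (0.33) and SLC16A4 (0.27). With POG the largest falls among called genes beside ANGPTL4 were PDK4 (−1.40) and IGFBP3 (−0.69), on low levels of 0.838 ± 0.308 and 3.26 ± 0.407 CPM in NC (SD, n = 2). P4HA1, a collagen prolyl hydroxylase raised by hypoxia, rose by 0.30 with POG and by 0.27 with DEG, and PLOD1 and LOX, which modify collagen as well, rose by 0.17 and 0.16 with POG. With DEG, again among called genes, the largest falls beside ANGPTL4 were CITED2 (−0.42) and VEGFA, and the largest rises INSIG2 (0.36), P4HA1 and LOX (0.25). Between DEG and POG 5 of the 83 tested genes of the list were called, or 6.02%. That compares with 1.05% of all tested genes and 1.54% of those with at least 10 CPM. Of the list 4 genes were higher in DEG, among them PDK4 (1.51), ANGPTL4 (0.53) and PLIN2 (0.17), and STC1 was lower (−0.13). PDK4 was low in NC and fell with POG, so its value here is a ratio of low levels.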

How the data were processed

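Raw counts of reads for each Ensembl gene, without normalization, were deposited by the authors as 1 table. Reads had been aligned to hg38 with STAR (BWA MEM was named too) and counted with featureCounts. Versions, annotation release, strand setting and the treatment of multi-mapped reads were not given in the sources used here. Exons of PFKM, PFKFB2, TPI1, CA9, BNIP3L, ANKRD37 and SLC16A3 overlap coding genes on the other strand. Those of GPI, PFKFB4, ALDOA, PGK1 and LDHB overlap coding genes on the same strand. GAPDH, BNIP3 and PGAM1 have 65, 44 and 13 named pseudogenes. Counts of all these genes may include or lose reads, which also bears on their levels per kilobase and shares of reads.

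A reference table paired symbols with 43214 of 43836 identifiers. Exon lengths and coordinates came from GENCODE v44 (hg38), matched by identifier without version. The filterByExpr filter, run by group, kept 17092 genes, which held 99.967% of the reads. With edgeR 4.0.16 in R 4.3.3, TMM scaling was applied, the dispersion of each gene was taken from all 12 libraries, and groups were compared with the exact test named by the authors, adjusted over all tested genes by the method of Benjamini and Hochberg. Standard errors and 95% intervals of log2 fold changes came from the quasi-likelihood fit. The count table came with 12 of 13 labelled samples, and the design counted on 13. Replicate numbers followed accession order and served only as names.

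Members and lists were chosen with earlier results of these data known. All members are accounted for. Those given with full values were called without overlap between the libraries compared, which held for every called member. Called or not, 11214 of 17092 tested genes had no overlap with NC for serum, 6998 for RES, 7542 for POG and 8851 for DEG. From the list of 94 other genes at most 3 per direction and comparison were named, the called genes with the largest log2 fold changes, and some of these are not reported here. Alternatives were the quasi-likelihood test, DESeq2 1.42.0, other scalings, filters, dispersions and thresholds, and leaving out each library.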

Additional observations from a re-analysis of the deposited data

How the results depend on the processing

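Of 107 calls of a member in a comparison, 74 were kept under every setting tried other than the stricter thresholds, and no called member changed direction under any setting. Requiring a log2 change of 0.5 or more in either direction left 8 called members for serum, 0 for RES, 0 for POG and 1 for DEG against NC, and 1 each for POG against RES and DEG against RES. Of all 17092 tested genes it left 1752, 246, 395, 257, 712 and 565 in the same order. With that limit 0 members of RES or POG had an unadjusted p under 0.05 by edgeR's exact test, as no member moved that far with either compound. Between DEG and POG the count of 1 became 4 with dispersions from those groups alone and 4 with dispersions without the positive controls, a setting chosen after seeing the data, and 0 with DESeq2, which gave CA9 no adjusted p. Calls over all tested genes went from 179 to 836, 631 and 147 under these settings. By the exact test 6 of 37 members had an unadjusted p under 0.05 between DEG and POG, against 1828 of the 17092 tested genes. Leaving out 1 library gave 7 to 11 called members for RES against NC and 0 to 1 for DEG against POG, while calls over all tested genes fell from 1906 to between 881 and 1465 and from 179 to between 32 and 100. Leaving out 1 RES or POG library gave 12 to 13 called members for POG against NC, 16 to 18 for POG against RES and 18 to 19 for DEG against RES. Over all tested genes, calls then fell from 2478 to between 1866 and 1941 for POG against NC. They fell from 4763 to between 3879 and 3992 for POG against RES, and from 3616 to between 3012 and 3061 for DEG against RES. Called members were fewer still for POG against NC without an NC library, and for DEG against RES without a DEG library. Either omission leaves 1 library in its group. Fewer libraries lower the power by themselves, and further causes were not tested. Under plain library totals the median log2 fold change of members moved from 0.23 to 0.19 for serum, from −0.06 to −0.032 for RES, from −0.04 to −0.016 for POG and from −0.059 to −0.04 for DEG. Among calls between compounds, those of SLC2A1, LDHB, PDK1, BNIP3 and GYS1 for POG against RES that of BNIP3 for DEG against RES and that of CA9 for DEG against POG were lost in 3 or more settings. CA9, ANKRD37 and PFKFB2 were the members with the fewest reads, and the effect of depth on their results was not tested. No paired analysis was possible because the labels give no replicate numbers.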
